A study of Mus musculus with 4 samples.

Results

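Glycogen synthesis and breakdown were followed through 9 named genes, of the 39179 genes listed for each library. They comprise the enzymes that make glycogen (*Ugp2*, *Gys1* and *Gbe1*), the phosphorylases that degrade it (*Pygl*, *Pygb* and *Pygm*) and subunits that bring protein phosphatase 1 (PP1) to the glycogen particle (*Ppp1r3b*, *Ppp1r3c* and *Ppp1r3d*). The 9 were matched by gene symbol, and the rule sets no threshold on a measured value. A list of 33 other glycogen genes is described after them. Both lists were chosen with earlier results of these data known, so their shares against all genes are descriptive only. The RNA-seq data cover 2 libraries of parental B16F1 cells, a mouse melanoma line, and 2 libraries of tumor repopulating cells (TRCs), which are B16F1 cells taken from spheroids grown in soft three-dimensional fibrin gels. No genotype change or drug is named for either group, and both derive from the same established line. TRCs were thus both a selected subpopulation and cells grown in a gel, and selection and growth condition cannot be told apart. The replicates of both groups carry the numbers 1 and 3, and nothing given says whether they came from separate cultures, so p-values measure only the spread between these libraries, which may be technical.

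Glycogen is the branched glucose store of animal cells. UDP-glucose pyrophosphorylase (*Ugp2*) makes the activated sugar, glycogen synthase (*Gys1* in most tissues, *Gys2* in liver) extends the chains on the primer glycogenin, and the branching enzyme (*Gbe1*) adds the branch points. Phosphorylase releases glucose 1-phosphate from chain ends and exists as a liver form (*Pygl*), a brain form (*Pygb*) and a muscle form (*Pygm*). PP1, held on glycogen by the *Ppp1r3* subunits, dephosphorylates both enzymes, which activates the synthase and inactivates the phosphorylase. Cells in low oxygen are known to store glycogen, and several genes of the pathway are known targets of hypoxia-inducible factors.

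Each library held between 35948295 and 43511554 counts on genes. A count of 3 corresponds to between 0.0689 and 0.0835 CPM (a count divided by the total of its library on genes and multiplied by 1000000) and was taken as the floor of detection, which covers counting error only. Gene levels below are also divided by TMM factors of 0.957 to 1.04, which correct for library composition. The 7 melanocyte lineage markers summed to 15712 to 18915 CPM in parental cells and 23969 to 26669 CPM in TRCs. *Dct* had 5694 and 4334 CPM in parental cells and 11154 and 10027 CPM in TRCs, and *Pmel* was also above in both TRC libraries. The groups overlapped for *Mitf*, *Sox10*, *Tyr*, *Tyrp1* and *Mlana*. Markers of leukocytes, endothelium, hepatocytes and skeletal muscle summed to less than 1 CPM per list in every library, and those of fibroblasts to 9.81 to 11.4 CPM in parental cells and 3.03 to 5.56 CPM in TRCs. The part of these marker differences in the results was not tested. Of the liver and skeletal muscle markers, *Alb*, *Myh1* and *Mb* had 0 counts throughout, and *Apoa1*, *Ttr*, *Ckm* and *Acta1* had 0 to 11 counts per library. Non-unique alignments, which were assigned to no gene, made up 15.2% to 18.3% of alignments in the other libraries and 25.2% in TRC replicate 3.

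The sequences before the start of 5 genes are shown, the 3 synthesis genes, which were all called higher in TRCs, *Pygl*, and *Ppp1r3c*, which had almost no counts. RefSeq promoter windows on GRCm38.p6 were found for 8 of the 9 members, with 2 windows for *Ugp2*. The letters searched were ACGTG and GCGTG on both strands, the core of the hypoxia response element bound by hypoxia-inducible factors. In the lines below, each written 5′ to 3′ on the strand of the gene, capitals mark these cores or their reverse complements. The stretches are chr11:21371268-21371517 on the minus strand for *Ugp2* (first of its windows), chr7:45434589-45434838 on the plus strand for *Gys1*, chr16:70313699-70313948 on the plus strand for *Gbe1*, chr12:70227684-70227933 on the minus strand for *Pygl* and chr19:36736654-36736854 on the minus strand for *Ppp1r3c*. The last is shortened to end before its first annotated exon, and the *Pygl* stretch lies in an intron of a longer GENCODE transcript.
Ugp2: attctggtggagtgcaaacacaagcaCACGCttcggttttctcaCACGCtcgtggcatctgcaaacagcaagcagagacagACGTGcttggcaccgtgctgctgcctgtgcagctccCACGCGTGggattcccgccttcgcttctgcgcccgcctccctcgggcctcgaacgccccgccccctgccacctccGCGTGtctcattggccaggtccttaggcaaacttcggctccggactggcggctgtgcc
Gys1: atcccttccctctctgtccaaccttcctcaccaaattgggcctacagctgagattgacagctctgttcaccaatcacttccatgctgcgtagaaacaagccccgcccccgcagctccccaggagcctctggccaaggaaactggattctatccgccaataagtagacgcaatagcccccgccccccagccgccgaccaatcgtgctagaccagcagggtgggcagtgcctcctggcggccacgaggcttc
Gbe1: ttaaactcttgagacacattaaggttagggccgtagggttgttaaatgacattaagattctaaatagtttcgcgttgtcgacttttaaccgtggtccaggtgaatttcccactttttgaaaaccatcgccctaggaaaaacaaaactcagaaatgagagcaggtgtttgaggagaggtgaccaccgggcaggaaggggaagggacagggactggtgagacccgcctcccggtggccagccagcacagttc
Pygl: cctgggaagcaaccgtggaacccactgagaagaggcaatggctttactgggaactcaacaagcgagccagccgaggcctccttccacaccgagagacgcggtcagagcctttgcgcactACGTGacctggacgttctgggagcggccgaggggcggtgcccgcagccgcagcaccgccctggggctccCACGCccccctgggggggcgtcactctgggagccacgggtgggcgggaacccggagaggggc
Ppp1r3c: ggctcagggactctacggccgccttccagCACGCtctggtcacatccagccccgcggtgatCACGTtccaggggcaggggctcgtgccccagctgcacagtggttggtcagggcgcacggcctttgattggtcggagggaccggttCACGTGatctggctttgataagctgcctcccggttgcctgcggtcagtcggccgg

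The first *Ugp2* window held 6 cores, 1 ACGTG and 5 GCGTG, and the second held 0. A pair of these GCGTG matches, on opposite strands, overlaps within the letters CACGCGTG. The windows of *Pygl*, *Pygb* and *Pygm* held 2 each, one of either kind, that of *Ppp1r3d* held 3 and that of *Ppp1r3c* held 4. *Gys1* and *Gbe1* had 0 cores in these 250 bases, which says only that the letters are not in this stretch. Of 32851 windows of the same length before all RefSeq starts, 38.6% held at least 1 core and 2.58% at least 4, and 6 of the 9 member windows held at least 1. In *Ppp1r3c* and *Ppp1r3d*, a pair of ACGTG matches on opposite strands forms 1 CACGTG, a palindrome also known as an E-box, which 6.02% of all windows hold. A match is a description of letters and not a binding site.

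**Figure D1:**
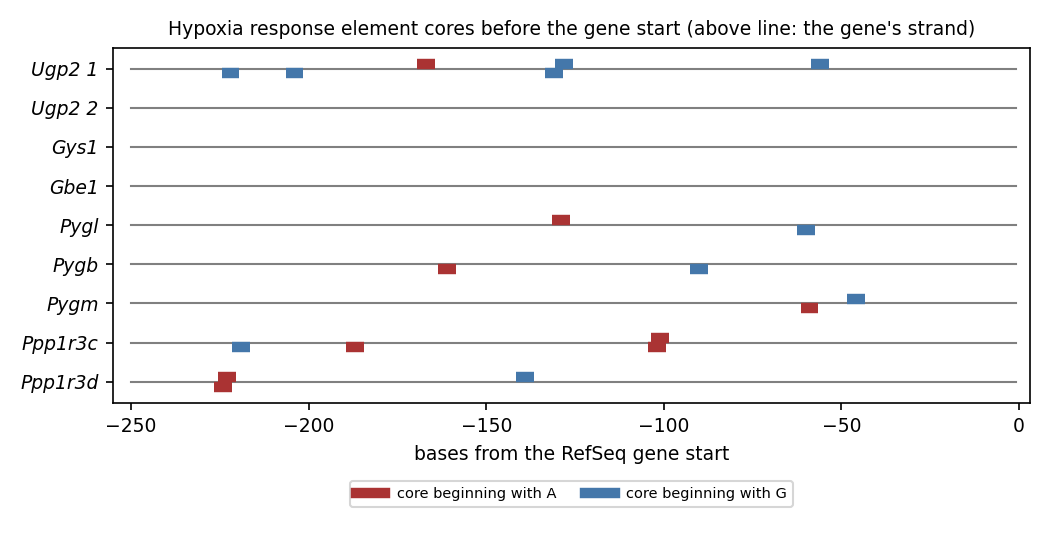
Hypoxia response element cores in the 250 bases before the RefSeq start of each member with a window, with the distance from the start in bases on the x axis and 1 line per window (*Ugp2* has 2). Red marks ACGTG and blue GCGTG, above the line on the gene's strand and below it on the opposite strand; *Ugp2* held 6 cores and *Gys1* and *Gbe1* held 0.

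The comparison asked how gene expression in TRCs differs from that in parental B16F1 cells, and is read here for glycogen metabolism. The 3 synthesis genes were higher in TRCs, by 3.69-fold for *Ugp2*, 5.43-fold for *Gys1* and 4.14-fold for *Gbe1*. *Pygb*, which gave most of the phosphorylase mRNA, was 1.35-fold higher and did not pass the test, while *Pygl* and *Pygm*, at 0.17 to 1.21 CPM in parental cells, were 7.54-fold and 3.98-fold higher. Among the phosphatase subunits *Ppp1r3b* rose 12.9-fold, from 0.652 and 0.085 CPM in parental replicates 1 and 3, of which only replicate 3 was near the floor. *Ppp1r3c* and *Ppp1r3d* were at or under the floor in every library. In bulk RNA, a change in the number of cells that express a gene and a change in RNA per cell cannot be told apart.

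Of the 9 members, 7 passed the filter on low counts (at least 1 CPM in at least 2 of the 4 libraries) and were tested together with 11483 genes in all. Of these 7, 6 were called higher in TRCs at FDR under 0.05, the Benjamini-Hochberg adjusted p of edgeR's exact test, where 8.81% of all genes tested were called higher. No member was called lower, with 0 also at an unadjusted p under 0.05 in edgeR and 0 calls in DESeq2, where 7.05% of all genes were called lower in edgeR and 8.24% in DESeq2. Without TRC replicate 3, 5 members passed the filter and 3 were called higher (*Ugp2*, *Gys1* and *Gbe1*), against 3.96% of all genes. With the same genes kept in that fit 5 were called, *Pygm* and *Ppp1r3b* in addition, against 4.37% of all genes. *Pygm* and *Ppp1r3b* reached 1 CPM only in TRC libraries, so they entered the test only because they were high there. The same holds for 139 genes in all. The counts of 6 and of 5 called members include both. When 3 libraries had to reach 1 CPM, neither was tested, and 4 of 5 members were called higher by the exact test. Of all genes then tested, 947 of 11154 were called higher. The 4 were *Ugp2*, *Gys1* and *Gbe1*, which reached 1 CPM in both parental libraries, and *Pygl*, which did not. Of the 5 members that reached 1 CPM in a parental library too, both TRC libraries lay above both parental libraries for 5, a pattern found for 30.2% of all genes tested. The median log2 fold change of these 5 was 2.05, and that over all genes tested was 0.0034. Among these 5, *Pygl* reached 1 CPM in only 1 parental library, so it too needed a TRC library to enter the test.

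**Figure D2:**
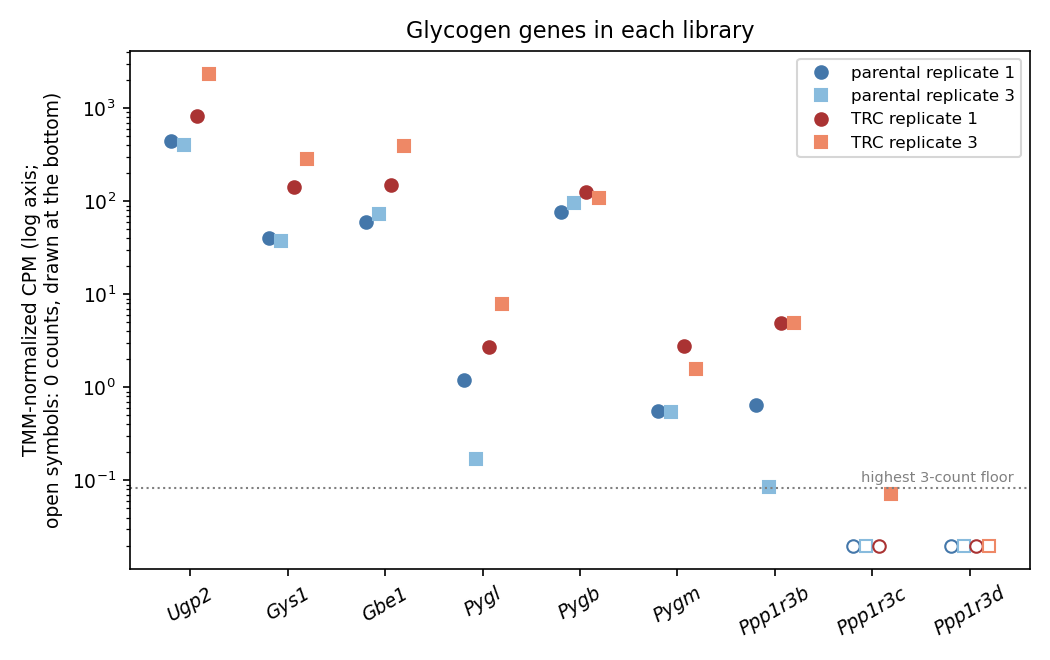
TMM-normalized CPM of the 9 members in each of the 4 libraries, on a log axis, with blue for parental and red for TRC libraries, circles for replicate 1 and squares for replicate 3. Open symbols at the bottom stand for 0 counts and the dotted line for 0.0835 CPM, the highest of the 3-count floors. In the 5 members that reached 1 CPM in a parental library too, both TRC libraries lie above both parental libraries. The same holds for 30.2% of all genes tested. *Pygl*, among the 5, reached 1 CPM in only 1 parental library and needed a TRC library to enter the test.

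*Ugp2* (ENSMUSG00000001891, chr11:21321138-21371201, minus strand on GRCm38, as for all genes below) was measured at 444 and 405 CPM in the parental libraries. The TRC libraries had 819 CPM (replicate 1) and 2312 CPM (replicate 3). The groups did not overlap, and the TRC libraries differed from each other by more than the lower one differed from the parental cells. The log2 fold change was 1.88 (SE 0.38, FDR = 4.56e-05). Without TRC replicate 3 it was 0.95 (FDR = 0.0176 in edgeR's exact test).

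*Gys1* (ENSMUSG00000003865, chr7:45434844-45456619, plus strand), the synthase itself, had 40.6 and 37.5 CPM in the parental libraries, and 141 and 283 CPM in TRC replicates 1 and 3. The parental libraries were close to each other and both TRC libraries were far above them. The log2 fold change was 2.44 (SE 0.32, FDR = 4.02e-12), and 1.85 without TRC replicate 3. It had the smallest FDR of the 9 genes and ranked 102 by log2 fold change among the genes tested. *Ruvbl2*, on the opposite strand, overlaps *Gys1* over 3253 bases and had 3382 to 4007 counts per library. The strand setting of the counting is not given in the sources used here, so reads of the overlapping bases cannot be assigned with certainty.

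*Gbe1* (ENSMUSG00000022707, chr16:70313949-70569716, plus strand), the branching enzyme gene, overlaps no other annotated gene. Parental cells had 59.2 CPM in replicate 1 and 72.1 CPM in replicate 3, whereas the TRC libraries had 148 CPM and 395 CPM. Both TRC libraries were above both parental ones, with replicate 3 again the higher. TRCs exceeded parental cells by 2.05 on the log2 scale (SE 0.38, FDR = 3.73e-06), and 1.18 without TRC replicate 3 (FDR = 0.00204 in edgeR's exact test).

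*Pygb* (ENSMUSG00000033059, chr2:150786735-150831758, plus strand), the brain-form phosphorylase, had 77.4 and 96.9 CPM in the parental libraries, and 126 and 108 CPM in TRC replicates 1 and 3. The groups did not overlap, but parental replicate 3 and TRC replicate 3 were close. The log2 fold change of 0.43 (SE 0.22) did not pass the test (FDR = 0.215 in edgeR's exact test), and leaving out any 1 library gave values between 0.28 and 0.60.

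*Pygl* (ENSMUSG00000021069, chr12:70190811-70231488, minus strand), the liver form, was counted 54 and 6 times in the parental libraries. TRC replicate 1 had 113 counts and TRC replicate 3 had 328. In CPM these were 1.21 and 0.17 in parental cells and 2.72 and 7.88 in TRCs, so the libraries of each group differed from each other several-fold. With 1 CPM reached in only 1 parental library, *Pygl* needed a TRC library to pass the filter. The fitted difference was 2.91 on the log2 scale (SE 0.82, FDR = 0.00222). The call ended without TRC replicate 3, at 1.95 (FDR = 0.148), and without parental replicate 3, at 2.12 (FDR = 0.0561). Without parental replicate 1 the difference was 4.94. In edgeR's quasi-likelihood test its FDR was 0.0674.

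*Pygm* (ENSMUSG00000032648, chr19:6384399-6398459, plus strand), the muscle form, was counted 25 and 19 times in the parental libraries. TRC replicate 1 had 117 counts and TRC replicate 3 had 66. That is 0.56 and 0.54 CPM against 2.81 and 1.59 CPM, and here TRC replicate 1 was the higher. *Pygm* reached 1 CPM only in TRC libraries, so it entered the test only because it was high there. On the log2 scale *Pygm* rose by 1.99 (SE 0.71, FDR = 0.00406). In edgeR's quasi-likelihood test its FDR was 0.0483 with no block and 0.0576 with a block for the replicate number. The call ended without parental replicate 3 (FDR = 0.0656 in edgeR's exact test), and with the same genes tested also without TRC replicate 1 (log2 fold change 1.51, FDR = 0.177).

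The makeup of the phosphorylase mRNA was compared per length, as counts per kilobase of exon. *Pygb* made up 97.9% (replicate 1) and 99.1% (replicate 3) of it in parental cells, and 95.4% and 93.2% in the same order in TRCs. *Pygl* had 1.07% and 0.121% in parental cells and 1.43% and 4.73% in TRCs. *Pygm* had 1.06% and 0.823% in parental cells and 3.17% and 2.04% in TRCs. The *Pygb* share was 4.15 percentage points lower in TRCs, and the groups did not overlap for any of the 3 shares. Without TRC replicate 3 the difference in the *Pygl* share was 0.835 in place of 2.49 percentage points. An exact 2-sided permutation test gave p = 0.3333 for each share, the smallest that 2 against 2 libraries allow.

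The balance of synthase to phosphorylase mRNA was compared in the same way. Per kilobase of exon, the level of *Gys1* relative to the 3 phosphorylases together was 0.515 and 0.385 in parental replicates 1 and 3. It was 1.07 and 2.45 in TRC replicates 1 and 3 (exact 2-sided permutation p = 0.3333, the smallest possible). Synthase mRNA was thus the lower in both parental libraries, close to the phosphorylases in TRC replicate 1 and the higher in TRC replicate 3. The ratio rests on exon lengths and on *Gys1* counts, in which reads over *Ruvbl2* cannot be assigned with certainty. In parental cells *Pygb*, at 16.1 and 20.1 CPM per kilobase, lay above *Gbe1* at 11.1 and 13.5 and above *Gys1* at 8.48 and 7.83. In TRCs *Gbe1* had 27.7 and 73.9 CPM per kilobase, *Gys1* had 29.4 and 59.2, and *Pygb* had 26.3 and 22.5. The TRC ranges of *Gbe1* and *Gys1* overlapped, so their order there is not resolved. *Ugp2* was far above these, at 132 to 145 CPM per kilobase in parental cells and 267 to 753 in TRCs, and *Pygl*, *Pygm* and *Ppp1r3b* were at 1.14 CPM per kilobase or less in each library.

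**Figure D3:**
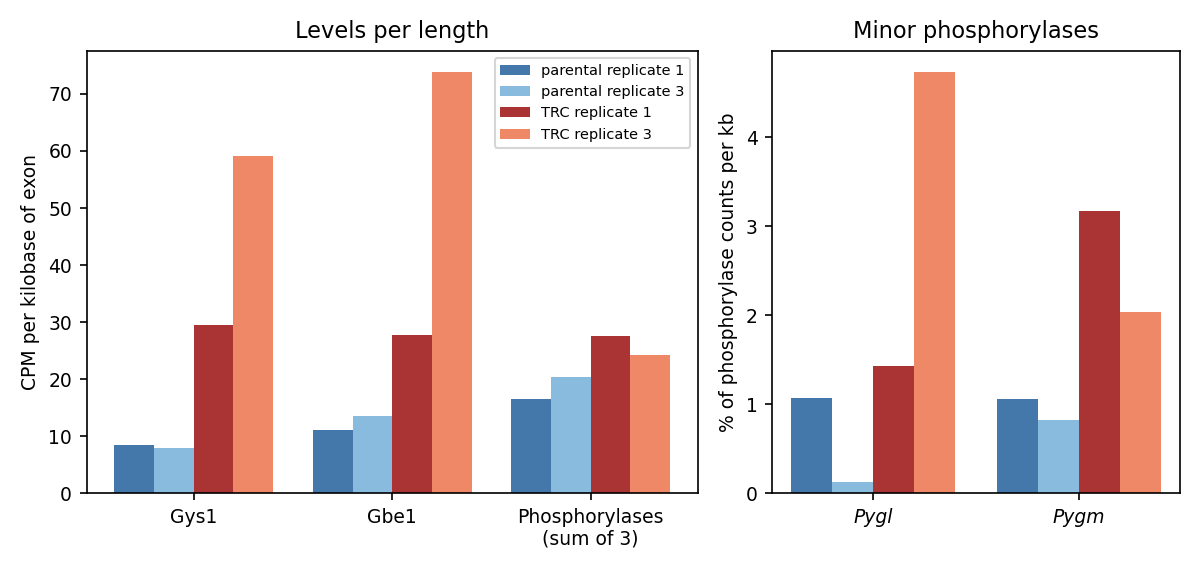
Left, CPM per kilobase of exon of *Gys1*, *Gbe1* and the sum of the 3 phosphorylases in each of the 4 libraries; right, *Pygl* and *Pygm* as a percentage of phosphorylase counts per kilobase. Bars are single libraries without error bars; *Gys1* rose from 7.83 and 8.48 in parental libraries to 29.4 and 59.2 in TRC libraries.

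*Ppp1r3b* (ENSMUSG00000046794, chr8:35375739-35388139, plus strand) encodes a subunit best known from liver that recruits PP1 to glycogen. Parental replicate 1 had 29 counts and parental replicate 3 had 3, whereas the TRC libraries had 204 and 205. That is 0.652 and 0.085 CPM against 4.91 and 4.93 CPM, so the TRC libraries were nearly equal and the parental ones were not. The rise was 3.69 on the log2 scale (SE 0.74, FDR = 1.59e-06). Its size depended on few parental counts, with 5.80 without parental replicate 1 and 2.91 without parental replicate 3. With the same genes tested it was 3.68 without TRC replicate 1 and 3.68 without TRC replicate 3. *Ppp1r3b* reached 1 CPM only in TRC libraries, so it entered the test only because it was high there. With the filter repeated, it could not be tested without either TRC library.

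*Ppp1r3c* (ENSMUSG00000067279, chr19:36731731-36736653, minus strand) encodes the subunit known as protein targeting to glycogen. It had 0 counts in 3 libraries and 3 counts in TRC replicate 3, which is 0.0721 CPM. *Ppp1r3d* (ENSMUSG00000049999, chr2:178411206-178414472, minus strand), another subunit of the family, had 0 counts in all 4 libraries, which allows up to 0.0835 CPM in the shallowest library. At this depth neither was detectable above the floor in parental cells or TRCs, and no fold change is given.

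Several members also differed between the TRC libraries. *Ugp2*, *Pygl*, *Gbe1* and *Gys1* had ratios of TRC replicate 3 to TRC replicate 1 of 2.82, 2.60, 2.66 and 2.01 (on CPM plus 0.5). Thus 4 of the 7 members tested were at least 2-fold higher in replicate 3, against 1.61% of all genes tested. *Ppp1r3b* had a ratio of 1.004, *Pygb* of 0.857 and *Pygm* of 0.629. In parental cells *Ugp2*, *Gys1*, *Gbe1*, *Pygb* and *Pygm* differed by ratios of 0.913 to 1.25 between replicate 3 and replicate 1, and the ratios of *Pygl* and *Ppp1r3b*, with few parental counts, were 0.391 and 0.508. TRC replicate 3 was also the library with 25.2% of alignments not unique, and the part of this in the difference was not tested.

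**Figure D4:**
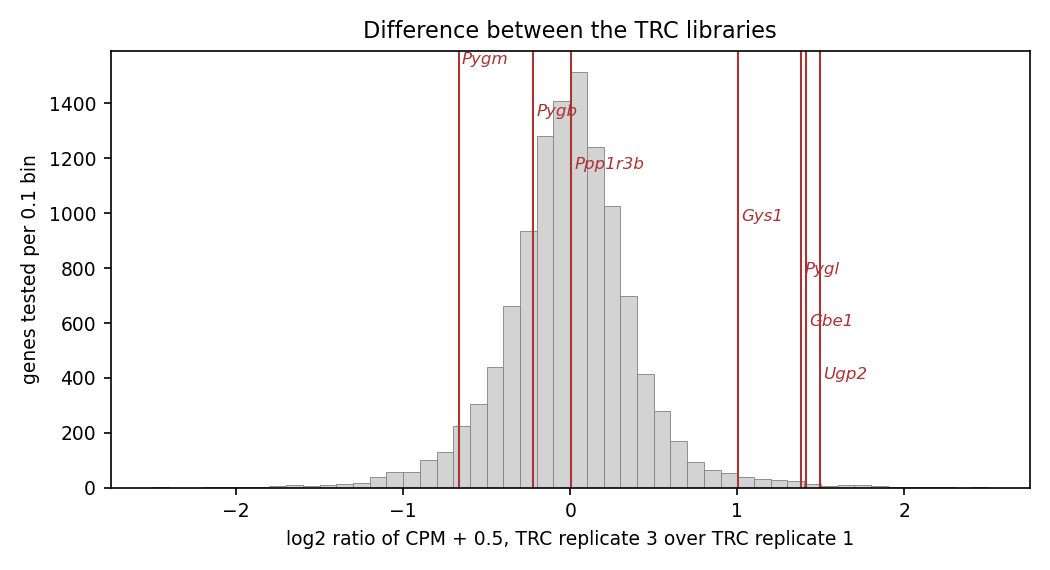
Histogram of the log2 ratio of CPM plus 0.5 in TRC replicate 3 over TRC replicate 1, with the number of genes tested per bin of width 0.1 on the y axis (values beyond the axis are drawn in the outermost bins). Red lines mark the 7 members tested; *Gys1*, *Pygl*, *Gbe1* and *Ugp2* lie at a ratio of 2 or more, where 1.61% of all genes lie.

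The other glycogen genes were a list of 33, of which 26 passed the filter and were tested. Of the 26, 6 were called higher, and 0 lower by edgeR's exact test (1 at an unadjusted p under 0.05, and 1 call, *Prkab1*, in DESeq2). This is 23.1% higher against 8.81% of all genes tested, and the median log2 fold change of the list was 0.22. The groups did not overlap with TRCs above for 10 of the 26 and with TRCs below for 1, against 30.2% and 30.4% of all genes. The list holds regulators shared with many other pathways, such as calmodulin and AMP-activated protein kinase.

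Among the remaining synthesis genes, *Pgm1* (phosphoglucomutase, which interconverts glucose 6-phosphate and glucose 1-phosphate) had 115 and 143 CPM in parental cells and 294 and 664 CPM in TRC replicates 1 and 3. Its log2 fold change was 1.89 (SE 0.34, FDR = 2.5e-06), and 1.19 without TRC replicate 3. *Gyg*, which encodes the primer glycogenin, had 220 and 168 CPM in parental cells and 388 and 266 CPM in TRCs, which differ by 0.75 on the log2 scale (SE 0.26, FDR = 0.0305). This call ended without parental replicate 3 (FDR = 0.351 in edgeR's exact test), without TRC replicate 1 (FDR = 0.456), with no filter on low counts and in the quasi-likelihood test with no replicate block. The liver synthase *Gys2* had 1 to 3 counts per library.

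Laforin, the phosphatase encoded by *Epm2a* that removes phosphate from glycogen and is mutated in Lafora disease, was far higher in TRCs at the mRNA level. *Epm2a* (ENSMUSG00000055493, chr10:11343404-11459644, plus strand) had 3.91 and 2.64 CPM in parental cells, and 30.3 and 74.3 CPM in TRC replicates 1 and 3. The groups did not overlap, and replicate 3 was again the higher. Its rise of 3.99 on the log2 scale (SE 0.41, FDR = 3.51e-17) ranked 28 among the genes tested, and it was 3.20 without TRC replicate 3. Its partner malin (*Nhlrc1*) had 15 to 61 counts per library and a log2 fold change of 0.56 (SE 0.86, FDR = 0.588 in edgeR's exact test).

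Of the genes of lysosomal breakdown, *Gaa*, the lysosomal glucosidase, had 257 and 223 CPM in parental cells and 225 and 334 CPM in TRCs. Its log2 fold change of 0.22 (SE 0.25) did not pass the test (FDR = 0.625 in edgeR's exact test). The groups overlapped, and the sign turned without TRC replicate 3, to −0.091. *Stbd1*, a starch-binding protein thought to carry glycogen to lysosomes, was under the filter with 8 to 27 counts per library.

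Of the PP1 targeting subunits outside the 9 genes, *Ppp1r3e* had 3.98 and 3.54 CPM in parental cells and 8.30 and 9.57 CPM in TRCs, a rise of 1.25 on the log2 scale (SE 0.35, FDR = 0.0211). The FDR was 0.0517 in the quasi-likelihood test. The call was not stable when any library was left out, with log2 fold changes of 1.13 to 1.34. *Ppp1r3f* had 5.67 and 3.83 CPM against 11.3 and 7.98 CPM, a log2 fold change of 1.02 (SE 0.39) that did not pass the test (FDR = 0.0842 in edgeR's exact test, 0.0471 in DESeq2). *Ppp1r3a*, the muscle subunit, and *Ppp1r3g* had 0 counts. Per kilobase of exon, *Ppp1r3b* took 3.76% and 0.631% of the counts of the 3 detected subunits in parental replicates 1 and 3 and 12.6% and 12.9% in TRCs, the rest belonging to *Ppp1r3e* and *Ppp1r3f* (exact 2-sided permutation p = 0.3333, the smallest possible).

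The PP1 catalytic subunit genes *Ppp1cb* and *Ppp1cc* had log2 fold changes of 0.15 (SE 0.20) and 0.21 (SE 0.21) that did not pass the test, and *Ppp1ca* is listed at 0 in every library. Of the phosphorylase kinase genes 7 of 8 were tested and 1 passed, *Calm3*, one of the calmodulin genes that provide its calcium-binding subunit, at 199 and 236 CPM against 358 and 386 CPM (log2 fold change 0.77, SE 0.20, FDR = 0.00982). The call ended without parental replicate 1 and without either TRC library. Of the synthase kinase genes 8 of 9 were tested and 1 passed, *Prkab2*, a glycogen-binding β subunit of AMP-activated protein kinase, at 11.3 and 7.20 CPM against 19.9 and 33.6 CPM (log2 fold change 1.53, SE 0.36, FDR = 0.000978). Without TRC replicate 3 its log2 fold change was 1.103 and the call ended (FDR = 0.15 in edgeR's exact test).

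**Figure D5:**
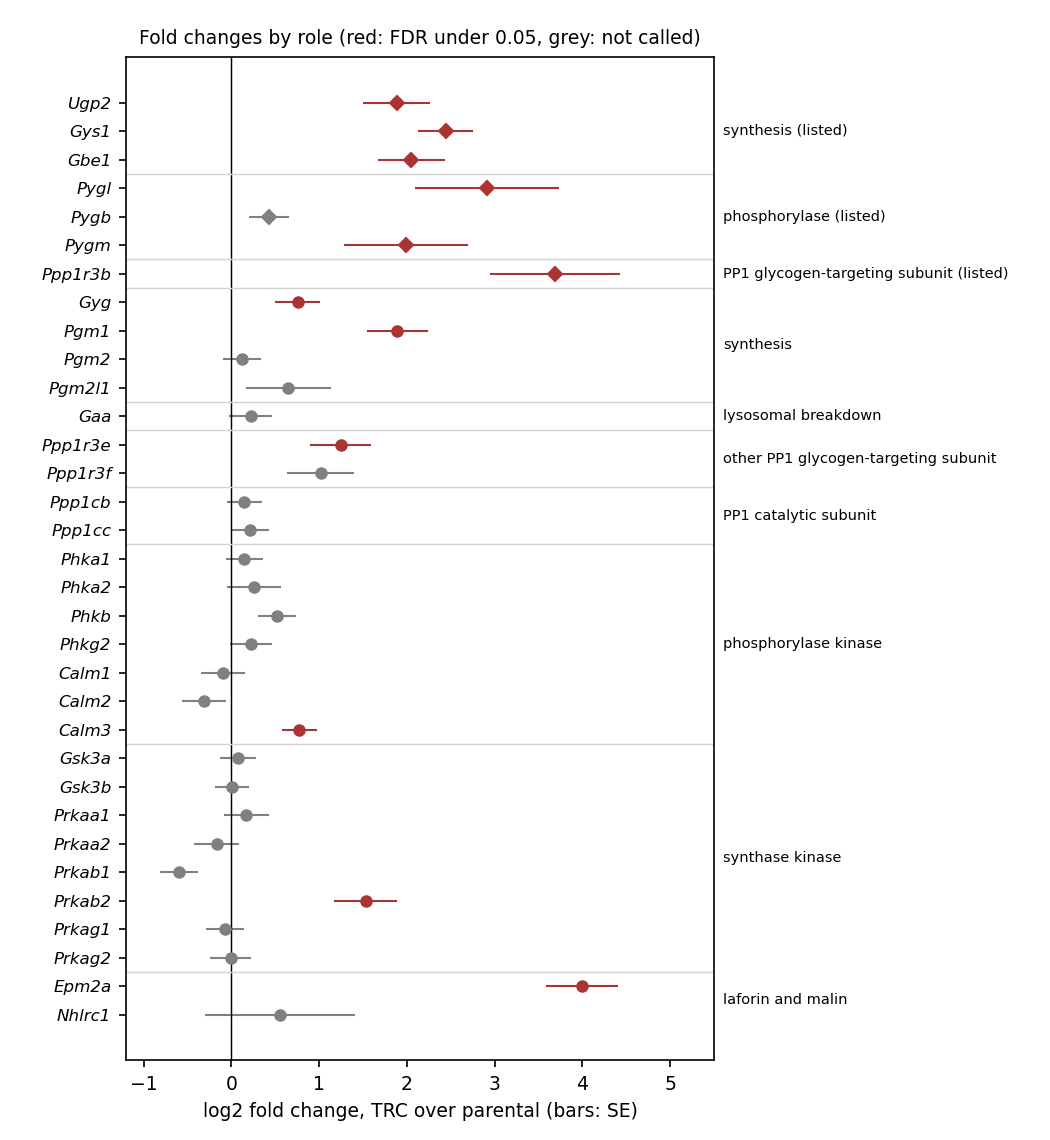
Log2 fold change of TRCs over parental cells (x axis, bars are the SE from DESeq2) for the 7 members tested (diamonds) and the 26 other glycogen genes tested (circles), grouped by role. Red marks FDR under 0.05 in edgeR's exact test, with 6 diamonds and 6 circles, among them *Epm2a* at 3.99 and *Ppp1r3b* at 3.69. Of all genes tested, 8.81% were called higher. *Pygm* and *Ppp1r3b* entered the test only because they were high in TRCs. *Pygl* reached 1 CPM in only 1 parental library and also needed a TRC library to enter.

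For the 3 members with the smallest FDR, the genes with the most similar pattern over the 4 libraries were found by the Euclidean distance of centred log2 (CPM + 0.5) values, among genes tested with a mean of at least 10 CPM. Nearest to *Gys1* were *Bnip3l*, a mitophagy receptor, at a distance of 0.137, *Ccng2*, a cyclin, at 0.256 and *Pfkp*, a phosphofructokinase, at 0.313. Nearest to *Gbe1* were the glycolytic enzyme gene *Tpi1* at 0.165, *Rab17* at 0.188 and *Pgm1* at 0.197. Nearest to *Ppp1r3b* were the histone demethylase gene *Kdm5b* at 0.361, *Prelp* at 0.477 and *Ache*, the acetylcholinesterase gene, at 0.571. With 4 libraries such a likeness is a description only.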

How the data were processed

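RNA-seq libraries of 2 parental and 2 TRC samples were analysed, grouped by their labels. The authors made stranded libraries, read them from 1 end, trimmed the reads (Trimmomatic 0.35), mapped them to GRCm38 by Tophat2 2.1.0 (Bowtie2 2.2.6, SAMtools 1.3) and ran htseq-count on Ensembl genes. Their deposited files hold unnormalized whole-number counts, 1 library each. Totals of alignments on no gene (__no_feature and the like; 2.95% to 4.25% had no feature) were removed first. Genes with at least 1 CPM in at least 2 of 4 libraries were kept, which left 11483, and the study's test was followed: edgeR 4.0.16 (R 4.3.3) with TMM scaling, tagwise dispersions, the exact test and 0.125 as prior count. FDR is the Benjamini-Hochberg adjusted p. SEs came from DESeq2 1.42.0. TMM factors ranged from 0.957 to 1.04. Exact permutation tests used SciPy 1.17.1 and plots matplotlib 3.10.9.

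Symbols, positions and exon lengths came from GENCODE M21 (GRCm38) and promoter sequences from RefSeq (GRCm38.p6). Level differences between genes use counts per kilobase of the union of exons. The tests were also run on simulated counts in which every gene had the common dispersion of 0.045. The tagwise dispersions of *Pygm*, *Ppp1r3b* and *Pygl* were higher, at 0.107 to 0.222, so that run does not cover genes as variable as these. The result of another glycogen gene is not reported here. The 9 genes and the lists were chosen with earlier results of these data known. Named genes are the 9 members, each other glycogen gene with FDR under 0.05 and, where a role had none, up to 3 by level, and the 3 nearest patterns for 3 members. *Ppp1r3f*, *Nhlrc1*, *Gys2*, *Stbd1*, *Ppp1r3a*, *Ppp1r3g*, *Ppp1ca*, *Prkab1* and *Ruvbl2* were added after their values were seen. Alternatives were 2 other filters, 2 other normalizations, edgeR's quasi-likelihood test, run both with a replicate block and with no block, DESeq2's Wald test, a prior count of 2, shares of counts, and each library left out. A leave-one-out fit on the same genes was added after the data were seen. Such fits assume that the lone library of a group varies like the other group.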

Additional observations from a re-analysis of the deposited data

How the results depend on the processing

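The 5 members that reached 1 CPM in a parental library too were higher in TRCs under each alternative that could test them. So were *Pygm* and *Ppp1r3b*, which entered the test only because they were high there. *Pygl*, among the 5, reached 1 CPM in only 1 parental library and also needed a TRC library to enter. Over the members' fold changes, 95 alternative values kept their side of the threshold and 11 called values no longer passed. The 95 include the values with a prior count of 2, which cannot change the FDR, and those of *Pygb*, which was never called. They also count both kinds of leave-one-out fit. The number of members called higher was 3 with the quasi-likelihood test and a replicate block (4.15% of all genes), and 3 to 6 with each library left out. With the replicate block, *Ugp2* was at 1.70 (FDR = 0.0543), *Pygl* at 2.98 (FDR = 0.122) and *Pygm* at 1.95 (FDR = 0.0576), and *Gys1*, *Gbe1* and *Ppp1r3b* kept their calls. Among the other glycogen genes the block ended the calls of *Prkab2* (1.51, FDR = 0.0646) and *Ppp1r3e* (1.24, FDR = 0.0735), and *Gyg* kept its call (FDR = 0.0499). Across genes, the correlation between the deviations of libraries that share a number was 0.027, so nothing shows that the numbers pair the samples. In the quasi-likelihood test without the block *Pygl* was at 2.90. Leaving out each library gave log2 fold changes of 0.94 to 2.44 for *Ugp2*, 1.94 to 4.94 for *Pygl* and 1.51 to 2.34 for *Pygm*. *Ppp1r3b* and *Pygm* leave the table without either TRC library or under the filter of 3 libraries. Called lower among the other glycogen genes was 1 in DESeq2, and called higher were 3 to 6 with each library left out. Over all genes, 567 were higher and 487 lower by the quasi-likelihood test, 477 and 308 with the block, and 447 to 1109 higher and 250 to 856 lower with each library left out. Without TRC replicate 3, *Gaa* was at −0.091 and −0.099, and with each other library left out it was positive, up to 0.47. With each library left out, the difference in share was −5.24 to −3.07 percentage points for *Pygb*, 0.835 to 4.14 for *Pygl* and 1.098 to 2.23 for *Pygm*. The causes were not tested, apart from fewer libraries or genes in a fit.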

Other observations

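*Ppp1ca*, which encodes a catalytic subunit of PP1, lies in a stretch of chromosome 19 from 4035407 to 4233634 (GRCm38) in which 18 consecutive protein-coding genes, from *Gstp1* to *Pold4*, have 0 counts in all 4 libraries. The genes on either side were counted, with 13778 counts over the 4 libraries for *Ndufv1* and 564 for *Ssh3*. No level of *Ppp1ca* can therefore be read from these counts, and the cause was not tested.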
